A study of Caenorhabditis elegans with 2 samples.

Results

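The dosage compensation complex genes of Caenorhabditis elegans described here are dpy-21, dpy-26, dpy-27, dpy-28, sdc-1, sdc-2, sdc-3, mix-1 and capg-1, 9 of 19973 protein-coding genes. They were taken by name, not by a measured value, and each was examined from 2000 bp upstream of its 5′ end to its annotated end. The data are peak lists of chromatin immunoprecipitation with sequencing (ChIP-seq) against C34F6.9 protein fused to eGFP, from whole L2 larvae, the second larval stage, of pooled sex. The strain is OP324, genotype unc-119(ed3) III; wgIs324, in which wgIs324 is the insertion that carries the tagged gene, so both replicates share the unc-119 allele and the same line. There was 1 group of 2 biological replicates and no comparison between conditions. The 4 lists used, in the ce11 build, were an optimal list of 5692 peaks thresholded by the authors for reproducibility, a pooled list, and 1 list per replicate, the last 3 with 30000 peaks and background regions each. Peaks are ranked below by the authors' signal from the highest, within a list only, because the replicate and pooled lists have no known common scale. The optimal list holds the 5692 highest pooled signals, so a peak's optimal and pooled ranks are the same and not separate evidence. The lists carry no read counts, so depth is unknown. Where a replicate is used alone, its highest peaks are as many as the optimal list holds.

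In C. elegans hermaphrodites, the dosage compensation complex binds along both X chromosomes and lowers their transcription to the level of the lone X of males. SDC-2 is made in XX embryos and, with SDC-3 and DPY-30, brings a condensin to X. That condensin consists of DPY-27, an SMC subunit found only there, and of MIX-1, DPY-26, DPY-28 and CAPG-1, which also serve in the mitotic and meiotic condensin. DPY-21 is a histone demethylase that enriches monomethylated H4K20 on X, and SDC-1 is a zinc finger protein of the same complex. The results below concern where the C34F6.9 product lay at the genes that encode these proteins, not where the complex itself binds.

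The sequences around the main summits, 50 bp to either side, are printed because these are the positions the results turn on. All are read 5′ to 3′ on the strand of the member gene, from the RefSeq copy of WBcel235, the assembly that ce11 names. Capitals mark GAGAGA on either strand, the E2F-like core in any of its spellings, or GGTTCGA, a stretch of the internal B box of tRNA genes; a sequence with no capitals holds none of them. The windows are chrX:16275372-16275472 (sdc-1, + strand), chrX:11522236-11522336 (sdc-2, + strand), chrV:15048210-15048310 (sdc-3, − strand), chrIII:3820265-3820365 (dpy-27, − strand), chrII:10840230-10840330 (mix-1 intron 13, + strand), chrII:10830571-10830671 (mix-1 intron 7, + strand) and chrIV:12451377-12451477 (dpy-26, − strand). The sdc-2 and dpy-26 windows are centred on summits of replicate 2 and replicate 1, since the optimal list has none there.
sdc-1: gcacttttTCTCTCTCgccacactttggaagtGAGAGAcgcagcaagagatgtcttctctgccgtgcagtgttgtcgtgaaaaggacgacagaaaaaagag
sdc-2: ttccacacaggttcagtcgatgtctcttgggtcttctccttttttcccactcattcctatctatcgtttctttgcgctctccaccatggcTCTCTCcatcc
sdc-3: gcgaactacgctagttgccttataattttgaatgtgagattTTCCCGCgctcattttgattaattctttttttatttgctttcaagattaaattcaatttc
dpy-27: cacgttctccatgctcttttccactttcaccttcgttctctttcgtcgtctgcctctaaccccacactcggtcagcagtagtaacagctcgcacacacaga
mix-1 intron 13: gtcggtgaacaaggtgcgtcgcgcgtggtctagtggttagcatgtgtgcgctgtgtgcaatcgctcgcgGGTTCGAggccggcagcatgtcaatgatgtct
mix-1 intron 7: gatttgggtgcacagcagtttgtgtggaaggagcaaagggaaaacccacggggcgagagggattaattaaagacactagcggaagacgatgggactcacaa
dpy-26: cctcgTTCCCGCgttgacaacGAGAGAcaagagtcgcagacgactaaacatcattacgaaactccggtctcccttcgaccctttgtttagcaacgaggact

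Of the 9 genes, 4 (dpy-27, sdc-1, sdc-3 and mix-1) had an optimal summit in the examined window, against 27.4% of all protein-coding genes. The member windows are long, from 7294 to 19179 bp, with a median of 4027 bp over all coding genes. Among coding genes whose window reaches at least the shortest member length, 46.1% had an optimal summit, so the count of 4 of 9 lies near that background. For 3 genes, sdc-1, sdc-3 and mix-1, the summit was no more than 500 bp from a 5′ end, against 17.0% of all coding genes. Any pooled region, background included, lay in the windows of 6 of 9 members, against 56.1% of all coding genes and 83.2% of those with windows of at least the shortest member length. The 4 genes with optimal peaks held 6 summits in all, 3 of them in mix-1, with ranks from 999 to 4796. Of these 6 summits, 5 had a counterpart within 100 bp among the highest peaks of both replicates, as did 75.4% of all optimal peaks. The exception was the summit at sdc-3.

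**Figure D1:**
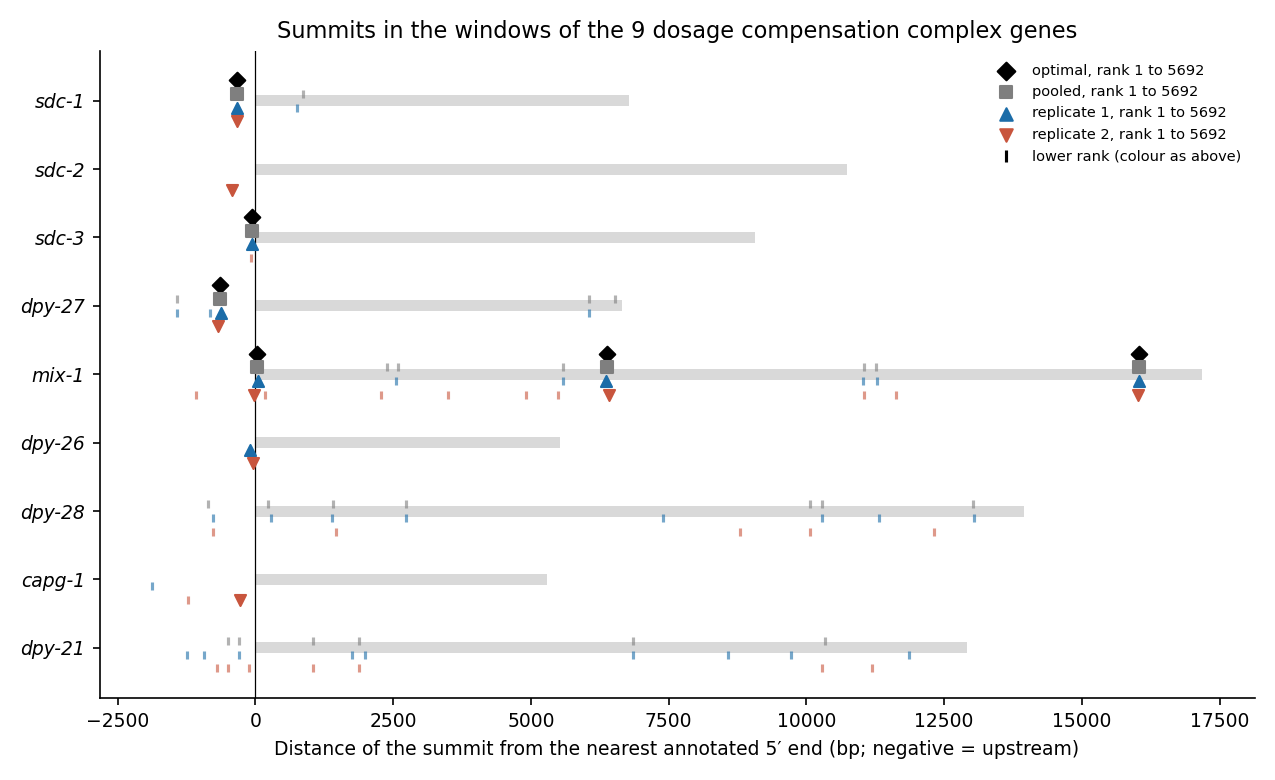
Summits in the windows of the 9 genes, by distance in bp from the nearest annotated 5′ end (negative is upstream). Grey bars are gene lengths, large symbols are peaks of rank 1 to 5692 in each list, and thin ticks are lower-ranked regions. Both replicates have a large symbol at the 5′ end of dpy-26, where the optimal and pooled lists have none.

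The genes for the SDC proteins, which direct the complex to X, differed from each other in the lists that held their promoter peak. At sdc-1 (WBGene00004745, chrX:16275763-16282534, + strand) the peak at chrX:16275224-16275619 had its summit 341 bp upstream of the 5′ end. Its signal of 121 ranked 2630 in the optimal list, and the same place ranked 3369 in replicate 1 (signal 58.8) and 1901 in replicate 2 (signal 63.6). The summits of the replicates lay 6 and 0 bp from the optimal one, and no other annotated 5′ end fell within 500 bp. The nearest others were those of the ncRNA gene F52E10.8, at 857 bp, and of a tRNA gene, at 924 bp.

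At sdc-3 (WBGene00004747, chrV:15039148-15048207, − strand), which encodes a zinc finger protein that joins SDC-2 in recruitment, the summit lay 53 bp upstream of the 5′ end. The peak at chrV:15048062-15048457 ranked 4175 in the optimal list with a signal of 78.5. Replicate 1 placed it at rank 3307 (signal 59.8) and replicate 2 at rank 8068 (signal 18.2), below that replicate's highest peaks. Its −log10 q-value in replicate 2 was 1.77, under that list's ceiling of 4.06. Of all optimal peaks, 13.7% likewise had a counterpart among the highest of replicate 1 and not of replicate 2, and 9.03% the reverse.

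At sdc-2 (WBGene00004746, chrX:11522707-11533450, + strand), the hermaphrodite-specific gene that triggers assembly on X, only replicate 2 had a summit. It lay 421 bp upstream of the 5′ end, in the peak chrX:11522086-11522485, and ranked 2165 with a signal of 57.8. Replicate 1 and the pooled list had no region anywhere in the sdc-2 window, not even a background one, and their nearest summits were 1603 and 1615 bp from the replicate 2 summit. The call therefore rests on replicate 2 alone. Both sdc-1 and sdc-2 are X-linked, and 1 of these 2 had an optimal summit no more than 500 bp from a 5′ end, against 13.8% of coding genes on X.

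Among the condensin genes, dpy-27 and mix-1 had the highest-ranked peaks of the whole set. The gene for the dosage-compensation-specific SMC subunit, dpy-27 (WBGene00001086, chrIII:3813018-3819679, − strand), had a peak at chrIII:3820117-3820512 with a signal of 227 and rank 999. It ranked 896 in replicate 1 (signal 144) and 1102 in replicate 2 (signal 88.5), so both replicates placed it high. Its summit lay 636 bp upstream of the annotated 5′ end of dpy-27 and 42 bp upstream of that of R13G10.5, a small ncRNA gene on the same strand. The divergent gene amx-1, on the other side, starts 2088 bp away. The peak is thus outside the 500 bp promoter window of dpy-27 and counts there only at 1000 bp.

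The gene mix-1 (WBGene00003367, chrII:10824246-10841424, + strand), whose SMC product is shared by all condensins of the worm, had 3 optimal peaks along 17179 bp. At its 5′ end, the summit of chrII:10824083-10824478 lay in exon 1, 35 bp downstream of the annotated start, and 200 bp upstream of the divergent gene R06F6.12. That peak ranked 2124 in the optimal list (signal 143), 2093 in replicate 1 (signal 86.9) and 2238 in replicate 2 (signal 56.6). The replicate summits fell on either side of the start, 47 bp downstream in replicate 1 and 19 bp upstream in replicate 2. Both 5′ ends are within reach of that peak, which cannot be given to either gene.

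The other 2 mix-1 peaks were intronic and lay closer to other genes than to the mix-1 promoter. The strongest, chrII:10840199-10840381 in intron 13, had a signal of 202 and rank 1221, with ranks of 1240 and 1500 in replicates 1 and 2 (signals 122 and 74.4). Its summit was 37 bp upstream of M106.6, a snoRNA gene inside mix-1, and 16034 bp from the mix-1 start. It was 183 bp wide, and 9.17% of optimal peaks were as narrow or narrower. The weakest, chrII:10830423-10830818 in intron 7, ranked 4796 (signal 68.0), with ranks of 5628 and 3998 in replicates 1 and 2 (signals 35.8 and 34.9). It lay 1440 bp upstream of VM106R.1, a coding gene on the opposite strand within mix-1. A further pooled region in intron 8, at summit 10835295, ranked 7445 with a signal of 43.7, outside the optimal list, whose lowest signal is 57.3.

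**Figure D2:**
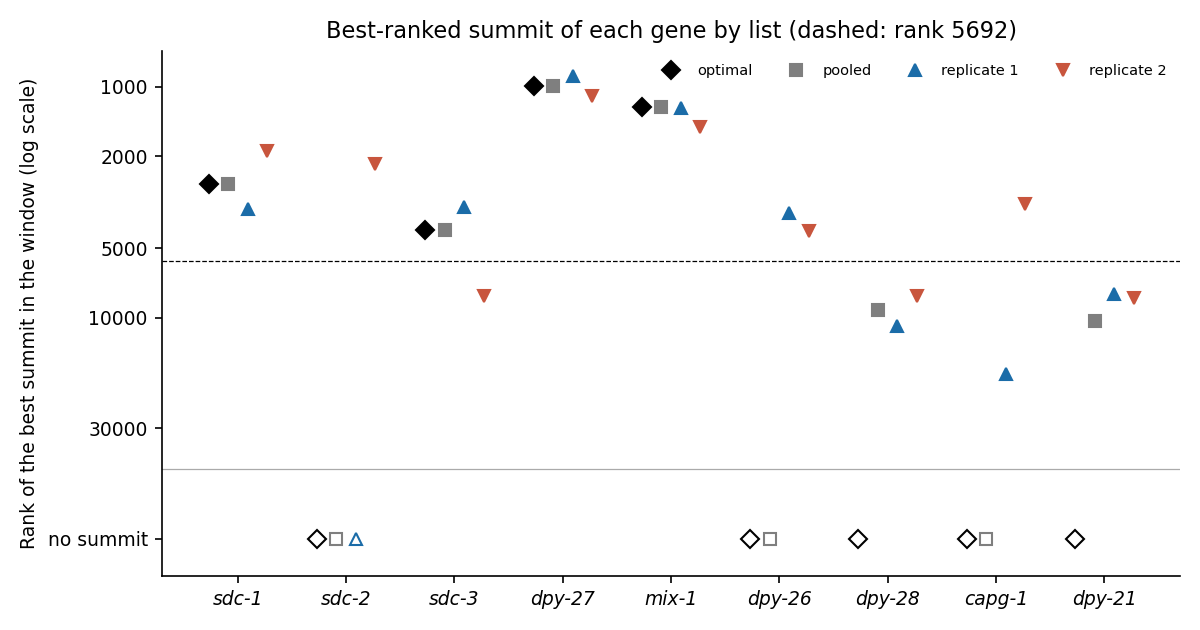
Rank of the best summit in the window of each gene in the 4 lists, on a log scale with high ranks at the top. Filled symbols are summits, open symbols at the bottom mean that the list has no summit in the window, and the dashed line is rank 5692. The ranks of dpy-27 lie between 896 and 1102 in every list, while sdc-2, dpy-26 and capg-1 have open symbols for the optimal and pooled lists.

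The gene dpy-26 (WBGene00001085, chrIV:12445801-12451335, − strand) encodes the kleisin, the subunit that bridges the SMC proteins of the dosage compensation condensin. Both replicates had a peak at its 5′ end. In replicate 1 the summit lay 92 bp upstream, in chrIV:12451237-12451616, at rank 3506 with a signal of 56.5. In replicate 2 it lay 37 bp upstream, in chrIV:12451172-12451571, at rank 4200 with a signal of 33.2. The −log10 q-value was at the ceiling of its list in each replicate (4.08 and 4.06). The pooled list, from which the optimal list is drawn, had no region in this window, and its nearest summit was 13550 bp away. Between the 2 pooled summits that flank dpy-26 lie 38203 bp, against a median of 1382 bp between neighbouring pooled summits. By number, 0.613% of such stretches are at least as long, but long stretches cover more of the genome than that share. The stretch was looked at because the pooled list had no region there, so its length is not separate evidence. The stretches around the replicate 2 summits of sdc-2 and capg-1, chosen likewise, were also above the median, at 24209 and 29649 bp. Within the stretch at dpy-26, replicate 1 had 2 regions and replicate 2 had 5.

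A place that is high in both replicates yet missing from the pooled list was rare. Of 4270 summits among the highest of replicate 1 with a counterpart within 100 bp among the highest of replicate 2, 15 (0.351%) had no pooled summit within 500 bp, and dpy-26 was 1 of these. None of the 15 peaks was overlapped by a pooled interval. Its absence from the optimal list therefore does not mean that the replicates lacked the peak. Why the pooled list has no region there was not tested.

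**Figure D3:**
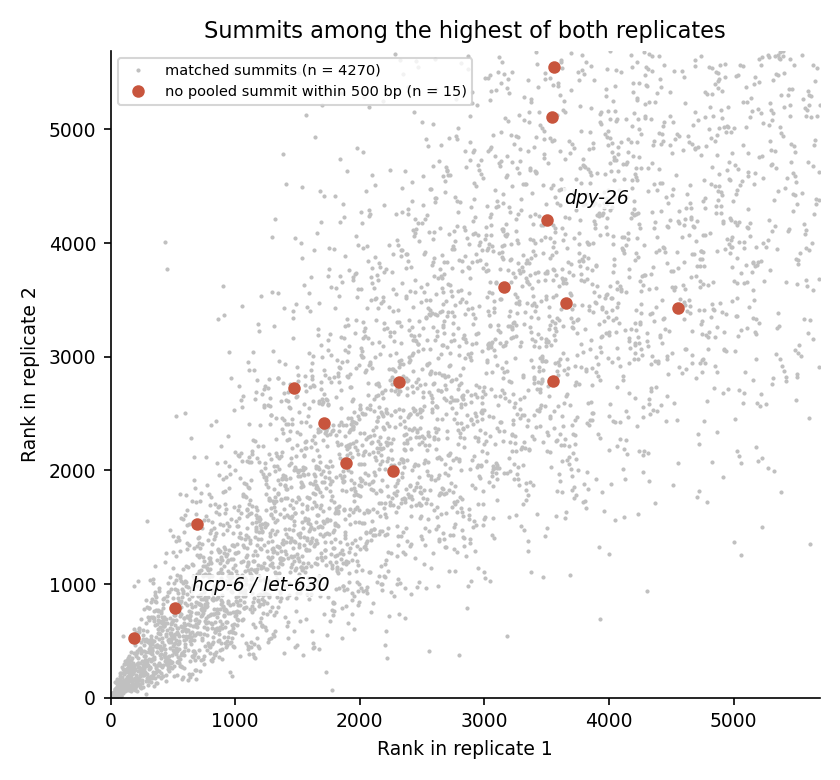
Ranks in replicate 1 and replicate 2 of the 4270 summits that are among the highest of both, matched within 100 bp. Red points are the 15 with no pooled summit within 500 bp, spread over the range of ranks, with dpy-26 at 3506 and 4200 and the hcp-6 and let-630 promoter at 519 and 790.

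The gene capg-1 (WBGene00009254, chrI:7634492-7639785, − strand), which like dpy-28 encodes a HEAT-repeat condensin subunit, had a promoter peak in replicate 2 alone, as sdc-2 did. Replicate 2 had a summit 283 bp upstream of its 5′ end, in chrI:7639868-7640267, at rank 3212 with a signal of 42.2. The nearest summits of replicate 1 and of the pooled list were 1592 and 1775 bp from it. Replicate 1 had only a region 1875 bp upstream in the capg-1 window, at rank 17499. The call rests on replicate 2 alone. In the lists of single replicates, 113 of the highest summits of replicate 2 (1.99%) had no replicate 1 summit within 500 bp, and 61 of replicate 1 (1.07%) had none of replicate 2.

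Promoter peaks were also counted in the single replicates. Replicate 1 had 4 of 9 members with a summit among its highest within the 500 bp promoter window (dpy-26, sdc-1, sdc-3 and mix-1), against 17.1% of coding genes. Replicate 2 had 5 of 9 (dpy-26, sdc-1, sdc-2, mix-1 and capg-1), against 16.7%. Together these are 6 of the 9 genes, against 19.0% of coding genes in either replicate, and sdc-1, mix-1 and dpy-26 were in both. For 3 members, dpy-26, sdc-2 and capg-1, there was such a replicate summit and no pooled summit in the whole window, a state found for 75 coding genes (0.376%). This last count was made after the values of the 3 genes were seen.

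The remaining 2 genes had weak regions only. At dpy-28 (WBGene00001087, chrIII:10763131-10777076, + strand), which encodes a HEAT-repeat condensin subunit, the best pooled region lay in intron 12 at summit 10773199, with a signal of 35.5 and rank 9258. The next lay 856 bp upstream of the 5′ end, at rank 9714. The best regions of replicates 1 and 2 ranked 10802 and 8067, at different places. At dpy-21 (WBGene00001080, chrV:17936282-17949193, − strand), the demethylase gene, the best pooled region lay 294 bp upstream of the 5′ end, at rank 10334 (signal 32.2). Replicate 1 had a region 289 bp upstream at rank 7905 (signal 26.6), whereas the best of replicate 2 lay in intron 2, at rank 8232 (signal 17.8).

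Optimal peaks from rank 5 to rank 5522 lay farther upstream of 5 of these genes, each nearer to another coding start. With 5000 bp upstream in place of 2000 bp, 7 of the 9 windows held an optimal summit, and dpy-26 and sdc-2 did not. The share was 36.7% of all coding genes and 55.5% of those as long as the shortest member window at 2000 bp. Upstream of dpy-28 is tasp-1, a threonine aspartase gene that ends 109 bp before dpy-28 on the same strand. The peak at the tasp-1 start, summit 10759272, ranked 5 in the optimal list and 5 in each replicate, and lay 3859 bp from the dpy-28 5′ end. Upstream of dpy-21, a peak with its summit at 17951416 ranked 146 (signal 460), 2223 bp from the dpy-21 start and 533 bp from that of Y59A8B.24. The peak at ncbp-2, a cap-binding protein gene, ranked 4910 and lay 3575 bp upstream of capg-1. That of sdc-1, near the bottom of the optimal list at rank 5522, lay 4340 bp upstream and 1354 bp from the nearest coding start, of ifa-3. That of mix-1 ranked 3050 and lay 4047 bp upstream, 221 bp from the start of R06F6.8.

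Genes of related complexes were examined with the same promoter window of 500 bp. They were listed with earlier results of these data known, so their counts beside the background are descriptive only. Of 31 such genes, 16 had an optimal summit there, against the 17.0% of coding genes given above. For 9 of the 16 (fem-1, fem-3, smc-4, capg-2, smc-3, scc-1, scc-3, wapl-1 and evl-14) another coding start is no more than 500 bp from the summit, and such a peak cannot be given to either gene. From 2000 bp upstream to the gene end, 21 of the 31 had an optimal summit, against 27.4% of all coding genes. Gene length was not matched there, and the share was 46.1% among coding genes with windows of at least the shortest member length. Within the promoter window, 15 and 17 of the 31 genes had a summit among the highest of replicates 1 and 2, against 17.1% and 16.7% of coding genes. Cohesin, the SMC complex that holds sister chromatids together, had an optimal promoter summit at 8 of 11 genes. Its peaks included wapl-1 (cohesin release, rank 125, a promoter shared with the histone variant gene htz-1), scc-2 (cohesin loading, rank 199), evl-14 (the worm Pds5, rank 353, shared with dcn-1, with its summit at 499 bp and no replicate summit inside 500 bp) and coh-1 (kleisin, rank 591). The kleisin gene scc-1 ranked 874 at a promoter shared with the proteasome gene rpn-5, and smc-3 ranked 969 beside mib-1 and gly-9. The cohesin gene scc-3, whose peak is 281 bp from its own start and 289 bp from that of abcf-1, ranked 2267 in the optimal list and 2617 in replicate 2, but the nearest replicate 1 summit was 11545 bp away. An absence of this kind from replicate 1 was seen for 29 of the optimal peaks (0.509%).

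Of the 4 other condensin genes, smc-4 (the SMC partner of MIX-1 outside dosage compensation) and capg-2 (a condensin II subunit) had optimal promoter peaks. The smc-4 peak ranked 1810, with ranks of 1454 and 2405 in replicates 1 and 2, and its summit was 4 bp from the start of the divergent gene F35G12.7. The capg-2 peak ranked 4303, with ranks of 3786 and 5521, and was 96 bp from the divergent tsfm-1. At the promoter that the condensin II gene hcp-6 shares with let-630, both replicates had a peak and the pooled list had none, as at dpy-26. It ranked 519 and 790 in replicates 1 and 2, with summits 137 and 120 bp upstream of hcp-6. The replicate 1 summit was nearer to let-630, at 127 bp, and 22391 bp from the nearest pooled summit. No list had a summit within the promoter window of kle-2, the condensin II kleisin, whose nearest optimal peak upstream, of rank 1104 at 698 bp, was 132 bp from the start of C29E4.12.

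Of the 13 genes of sex determination and of the X signal, 4 had an optimal promoter peak, against 17.0% of all coding genes. They were ceh-39, fem-1, fem-2 and fem-3. From 2000 bp upstream to the gene end, 7 of the 13 had an optimal summit, against 27.4% of all coding genes, with gene length not matched. Those with none in the promoter window were sea-2 (several peaks, ranks 1386 to 5403), tra-1 (rank 1947, in intron 4) and fox-1 (rank 5273, 719 bp from a 5′ end). The homeobox gene ceh-39, an X signal element, ranked 1439 (ranks of 1364 and 1742 in replicates 1 and 2). Its optimal summit was 194 bp from the ceh-39 start and nearer to that of an ncRNA gene, at 107 bp. The fem genes, which promote male fate, ranked 3084 (fem-1), 1767 (fem-2) and 3301 (fem-3). The fem-1 summit was also 493 bp from the start of drp-1, and the fem-3 summit, 433 bp from fem-3, was nearer to C01F6.14, at 412 bp. At xol-1, the switch gene that keeps SDC-2 off in males, the best promoter regions of replicates 1 and 2 ranked 9344 and 24423. At her-1, the sex gene that the SDC proteins repress, they ranked 15612 and 12861, at different places. The gene dpy-30, whose product the complex shares with H3K4 methyltransferases, ranked 900, with 804 and 1185 in replicates 1 and 2. The H4K20 methyltransferase gene set-4 ranked 124, with 131 and 130, whereas set-1, of the same class, had no optimal summit within 500 bp. The optimal peaks in the set-1 window lay 563 bp upstream at rank 3606 and 1489 bp upstream at rank 864. The latter was nearer to another coding start, at 616 bp.

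**Figure D4:**
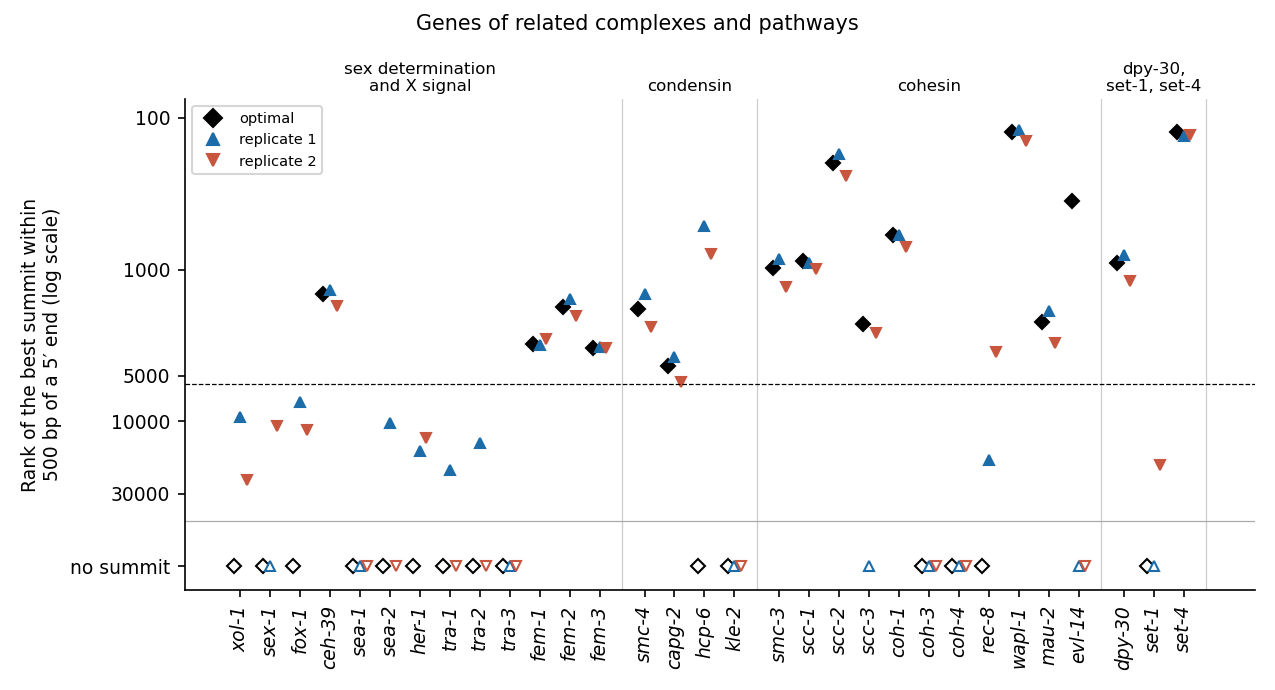
Rank of the best summit within 500 bp of a 5′ end for 31 related genes in the optimal list and each replicate, on a log scale with high ranks at the top. Open symbols at the bottom mean no summit, and the dashed line is rank 5692. Cohesin genes hold most of the high ranks, and hcp-6 has both replicate symbols near the top but an open optimal symbol.

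The windows of the 6 member summits in the optimal list were compared with the same 101 bp windows of all 5692 optimal peaks. That of the mix-1 5′ end is not printed above. GAGAGA on either strand was in 1 of the 6 member windows of the optimal list, that of sdc-1, against 31.2% of all optimal windows. It was also in the replicate 2 window of sdc-2 and the replicate 1 window of dpy-26, but not in the replicate 2 window of dpy-26. The E-box core CACGTG, the GC box letters GGGCGG and the TATA-like TATAAA were in none of the 6, against 4.37%, 4.44% and 5.46% of all. The E2F-like core was searched after the windows had been seen, spelled TTCCCGC or else TTGGCGC or else TTGCCGC or else TTCGCGC, on both strands. It was in 2 of the 6 windows, those of sdc-3 and of the mix-1 5′ end, against 7.50% of all. The replicate 1 window of dpy-26 and the replicate 2 window of capg-1 also held it, but the replicate 2 window of dpy-26 did not. The letters GGTTCGA, also chosen after seeing the windows, were in that of the mix-1 intron 13 peak beside the snoRNA gene, and in 1.63% of all. In the printed windows no motif overlaps a different one, but the first GAGAGA stretch of sdc-1 holds overlapping copies. Such a match describes letters, not binding by any factor.

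Base composition differed widely among the member windows. The GC content was 30.7% at sdc-3, 41.6% at the mix-1 5′ end, 48.5% at sdc-1, 50.5% in mix-1 intron 7, 51.5% at dpy-27 and 59.4% in mix-1 intron 13. All optimal windows had a median of 43.6%, with quartiles of 38.6% and 49.5%. The lowest and the highest member windows, sdc-3 and mix-1 intron 13, therefore lie on opposite sides of the middle range.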

How the data were processed

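The deposited files are narrowPeak lists, per the deposited listing of the files. Each replicate list was called by the authors on that replicate with a control, the pooled list on both, and the optimal list by IDR (irreproducible discovery rate) thresholding. The signal of a peak and its −log10 q-value are the authors' deposited values; the signal was used only to rank peaks within a list, and the q-value only as described. Summits were placed by the authors' offset within each peak, in bp. Aligner, caller and versions were not given in the sources used here, and the control library was not analysed here. All optimal signals equal the 5692 highest pooled signals. A single peak's place in the optimal list therefore follows its pooled rank, and does not by itself show that both replicates had it. Genes and 5′ ends are from Ensembl release 115 (WBcel235), and all intervals lie within that assembly's chromosomes. Coordinates are 1-based. The ce10 lists were not used here.

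No test was made, because there is 1 group and the members were chosen by name: counts stand beside the share of all coding genes under the same rule. The members, the lists of related genes and the alternatives were chosen with earlier results of these data known. Of 32 related genes listed, 1 (smc-1) was not found under that name. Named genes are the members, genes with a 5′ end within 500 bp of a member summit or else the nearest coding gene, and up to 6 related genes per list with an optimal promoter summit, by rank; scc-3, hcp-6, let-630, kle-2, C29E4.12, xol-1, her-1, set-1, the genes nearest the peaks between 2000 and 5000 bp upstream, amx-1, F52E10.8 and the tRNA gene were added after their values were seen. The genes sea-2, tra-1 and fox-1 were also named after their values were seen. Both replicates share a strain, and their spread holds culture and technical differences together. The calling code was tested on simulated summits. Python 3.11.15, numpy 2.4.6, pandas 2.3.3 and matplotlib 3.10.9 were used.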

Additional observations from a re-analysis of the deposited data

How the results depend on the processing

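The count of members with an optimal summit in the window was 7 with 5000 bp upstream, in place of 4, and the summits in these windows then numbered 11, in place of 6. Under the other alternatives, which were 1000 bp, any overlap of the interval, the 2846 highest optimal peaks, nearest coding 5′ end only and each replicate alone, the member count ranged from 3 to 6. The count of members with a promoter summit, 3, was 2 within 250 bp, 2 in the 2846 highest optimal peaks, 4 within 1000 bp, 4 to 5 in a single replicate and 6 in either replicate, the last chosen after seeing the data. The related gene count of 16 was 9 within 250 bp and 10 with the nearest coding 5′ end only. The summits matched in both replicates, 5, numbered 4 at 50 bp, 5 at 200 bp and 6 with the full replicate lists. Of 135 counts for single genes under alternatives, 111 stayed within 1.5 times and 24 did not. Many of the 111 were counts of 0 that stayed at 0, for which such a ratio has no meaning. No paired analysis was possible because there is only 1 group. Absence of a summit is a property of the list, since the lists hold no coverage.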

Other observations

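Beside dpy-26 and the hcp-6 promoter, the other places that were among the highest of both replicates with no pooled summit within 500 bp numbered 13. The highest ranked 185 in replicate 1 and 526 in replicate 2, with its summit 179 bp upstream of citk-2 and 3985 bp from the nearest pooled summit. That at tgs-1, a gene for a trimethylguanosine synthase, ranked 696 and 1530, at 156 bp upstream. Further ones lay 225 bp upstream of prp-4 (ranks of 2270 and 1993), 76 bp downstream of the start of cdt-2, a cell cycle ubiquitin ligase gene (3154 and 3615), and 204 bp upstream of the Argonaute gene wago-4 (4554 and 3430). The farthest from any pooled summit was the place 129 bp upstream of F07E5.5, at 93220 bp, with ranks of 3550 and 2783. These genes were picked after their values were seen, and the cause was not tested.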
